A study of Arabidopsis thaliana with 74 samples.

Results

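The interval described here is the insertion of mitochondrial DNA in the pericentromeric heterochromatin of chromosome 2 of *Arabidopsis thaliana*. Its members were the 1500 non-overlapping windows of 200 bp in the CHH table of small RNA (sRNA) counts whose midpoint lay on chromosome 2 between positions 3220001 and 3520000 (TAIR10), of 594835 such windows on the 5 chromosomes. The value of a window is the number of sRNA reads of any length that the deposited table assigns to it. The 300 kb on the left side (positions 2920001 to 3220000, 1500 windows) and the 300 kb on the right side (positions 3520001 to 3820000, 1496 windows) were taken for comparison and are called the left and the right flank.

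The libraries came from aerial rosettes harvested 27 days after sowing, with 1 library per line pooled over plants. The 36 epiRILs are inbred lines of the Columbia (Col) accession that descend from a *ddm1-2* mutant, carry wild-type DDM1 and inherit hypomethylated segments from that mutant. The 36 epiHybrids are the F1 offspring of these same epiRILs as fathers, and every cross used msCol as the mother, a male-sterile Col line with a mutation in *MALE STERILITY 1* and a remaining Ler segment, from which 2 libraries (12 and 16) were made. An epiHybrid and its father carry the same family number, so that families were compared in pairs, and p-values measure the spread between lines, each represented by a single library.

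The labels were checked at 226 windows within 1 Mb of *MALE STERILITY 1* on chromosome 5, where msCol had less than 1/8 of the epiRIL median, by placing each library between msCol (0) and the epiRIL median (1). The libraries labelled epiHybrid had a median of 0.49 and those labelled epiRIL of 1.01, and the epiHybrid was the lower one in 34 of 36 families. Families 12 and 568 were reversed, with 1.00 and 1.19 in the libraries labelled epiHybrid and 0.65 and 0.60 in those labelled epiRIL. All values are given under the labels, and the main values of the insertion that rest on families are given also without these 2.

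Pieces of organelle genomes are copied into plant nuclear chromosomes, and the Col accession holds a large, nearly complete copy of the mitochondrial genome next to the centromere of chromosome 2, of which the assembled chromosome holds a shortened version. In plants, sRNAs guide new DNA methylation to the sequences they match. The hypomethylated regions of the epiRILs were first induced by a mutation of the chromatin remodeller DDM1. Mitochondria are inherited from the mother in *Arabidopsis*, and fragments of mitochondrial transcripts and tRNAs also appear in sRNA libraries. A read that matches the insertion and the mitochondrial genome equally well cannot be told apart by its sequence, and how the counting placed such reads is not given in the sources used here.

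The label of the interval was checked against the mitochondrial genome of the RefSeq reference (TAIR10.1) with words of 24 bases, the length of the sRNAs of this pathway. The match began at position 3239038 and ended at position 3509765, as 25 colinear runs of at least 1 kb that spanned 270.7 kb, the longest of 50044 bp, with 98.4% of the words at their colinear place (range over runs 96.96% to 100%). Of the 367808 bp of the mitochondrial genome, 73.7% was found in the interval. In 1201 of the 1500 windows more than 90% of the words were shared with the mitochondrial genome, in 149 some were shared, and in 150 none was, of which 145 lay outside the match at the 2 ends of the interval and 5 inside it. The ends of the match are shown to place the change from nuclear to mitochondrial sequence (RefSeq, TAIR10.1, plus strand, mitochondrial part in capitals), at chr2:3238978-3239097 and chr2:3509706-3509825.
Left end: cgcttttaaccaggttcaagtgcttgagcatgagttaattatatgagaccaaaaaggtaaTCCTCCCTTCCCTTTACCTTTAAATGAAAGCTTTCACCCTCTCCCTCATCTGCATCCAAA
Right end: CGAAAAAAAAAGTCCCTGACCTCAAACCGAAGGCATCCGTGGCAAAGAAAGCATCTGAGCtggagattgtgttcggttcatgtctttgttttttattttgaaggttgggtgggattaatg

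Both ends of the match lay inside the interval, and the windows outside them belong to the surrounding chromosome. The median GC content was 44.5% in windows that shared more than 90% of their words, 37.75% in windows of the interval that shared none, and 36% and 37% in the windows of the left and the right flank that shared none.

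The windows of the insertion were nearly all covered by sRNA. Of the 1500 windows, 1416 reached a mean count of 2 or more per library, and the mean level over windows, in counts normalised with TMM factors (trimmed mean of M values) and with the highest window left out, was 59.0, against 26.5 in the left flank and 54.7 in the right flank. The median window had a level of 29.9, against 9.19 in the left and 12.2 in the right flank, and in the right flank the 10 highest windows held 40.6% of the level. Within the interval, windows that shared more than 90% of their words with the mitochondrial genome had a median level of 32.6, and windows that shared none had a median of 8.35.

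One window stood apart from all others. The window at chr2:3496401-3496600 contains AT2G07764, a gene for tRNA-Asn at positions 3496440 to 3496511 (plus strand, 72 bp), the transfer RNA that carries asparagine to the ribosome. It held 45.3% of all counts of the insertion over the 74 libraries. Its sequence is shown because this window alone held that share of the counts (RefSeq, TAIR10.1, tRNA-Asn gene in capitals).
Window with AT2G07764: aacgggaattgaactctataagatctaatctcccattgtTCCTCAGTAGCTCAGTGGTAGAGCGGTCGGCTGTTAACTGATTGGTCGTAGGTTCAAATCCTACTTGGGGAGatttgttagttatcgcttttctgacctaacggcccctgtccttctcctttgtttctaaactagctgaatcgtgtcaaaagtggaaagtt

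The 72 bases of the gene are identical at positions 43544 to 43615 of the mitochondrial genome, and the chloroplast genome holds 2 copies with 1 mismatch each, at positions 129565 to 129636 and 109013 to 109084. The libraries fell into 2 separate clusters at this window. In 55 libraries its raw count lay between 34454 and 222714 (median 85587), and in the other 19 between 0 and 307 (median 3). The high cluster held 27 of the 36 epiRILs, 26 of the 36 epiHybrids and both msCol libraries, with 49688 and 68845 counts. In 19 families father and epiHybrid were both in the high cluster, in 7 only the epiHybrid, in 8 only the epiRIL, and in 2 neither, and the test across all windows gave no difference between epiHybrids and epiRILs (log2 fold change -0.04, SE 1.06, adjusted p = 0.991, edgeR). What separates the clusters was not tested, and sums over the insertion are therefore given with and without this window.

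**Figure D1:**
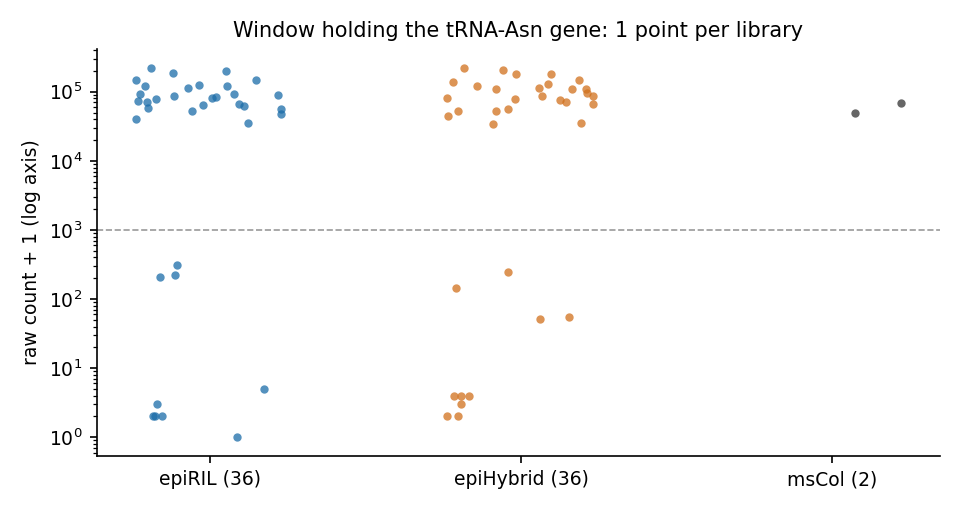
Raw count plus 1 of the window with the tRNA-Asn gene (log axis) in every library, by group, with 1 point per library and a dashed line at 1000 counts. The 55 libraries above the line lie between 34454 and 222714 counts and the 19 below it at 307 or fewer.

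The next highest windows also held organelle tRNA or ribosomal protein genes. The window at chr2:3495401-3495600 with AT2G07763, the gene for tRNA-Cys, had a normalised count of 797 to 2278 in epiRILs (median 1319), 787 to 3058 in epiHybrids (median 1483), and 1285 and 3296 in msCol. The gene for tRNA-Pro, AT2G07762, lies in the window at chr2:3495001-3495200, which had 574 to 2347 in epiRILs (median 863), 495 to 1628 in epiHybrids (median 803), and 636 and 1109 in msCol. No library of either group fell to 0 in these windows, unlike at the tRNA-Asn gene. Their genes are shown beside it because they lie just upstream of it and gave no second cluster (RefSeq, TAIR10.1, plus strand, chr2:3495442-3495512 and chr2:3495012-3495086, gene in capitals).
AT2G07763 tRNA-Cys: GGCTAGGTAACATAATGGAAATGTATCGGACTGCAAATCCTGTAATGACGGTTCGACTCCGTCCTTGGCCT
AT2G07762 tRNA-Pro: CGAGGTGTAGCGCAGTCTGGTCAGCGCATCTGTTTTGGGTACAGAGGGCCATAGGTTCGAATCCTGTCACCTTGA

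In AT2G07715 the window at chr2:3411601-3411800, which matches the mitochondrial rpl2 gene for a protein of the large ribosomal subunit, had 0 to 2457 normalised counts in epiRILs (median 944), 454 to 2055 in epiHybrids (median 956), and 2298 and 1164 in msCol. The window at chr2:3444201-3444400, which lies in AT2G07815, a gene of cytochrome c maturation, and touches AT2G07756 for tRNA-Gly, had 416 to 1920 in epiRILs (median 826), 439 to 2015 in epiHybrids (median 717), and 550 and 1110 in msCol. In neither window did epiHybrids and epiRILs differ by the test (adjusted p = 0.633 and 0.304, edgeR), and their ranges overlapped.

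A few stretches of the insertion gave no read at all. In 53 windows the count was 0 in all 74 libraries, against 4 of the 2996 windows of the flanks. Of the windows with 1 copy in the region and 1 in the mitochondrial genome, 1130 in all, none had a mean level below 1. Of the 88 windows with 2 copies in the region and 2 in the mitochondrial genome, 55 were below 1 and 52 were at 0 in every library. They formed blocks at chr2:3369001-3375000 (29 windows below 1) and chr2:3503001-3509200 (24 windows below 1), which hold the tRNA-Ser genes AT2G07793 and AT2G07766. Whether the placement of reads with several equal matches bears on this was not tested.

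Along the insertion the level was uneven. In bins of 10 kb, counted from the left boundary of the interval and without the tRNA-Asn window, the mean level ranged from 232 to 6867 normalised counts (median 2714), against medians of 1002 in the left and 1152 in the right flank. The 3 highest bins began at 110, 90 and 80 kb, with 6867, 6595 and 6441. The 3 lowest began at 150, 10 and 280 kb, with 232, 746 and 942, and the lowest of them contains most of the first block without reads. The bin at 280 kb contains the second block. Most of the bin at 10 kb lies outside the match, which began at position 3239038. The bins at 0 and 290 kb, which shared 0% and 0.045% of their words with the mitochondrial genome, had 1079 and 1470.

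**Figure D2:**
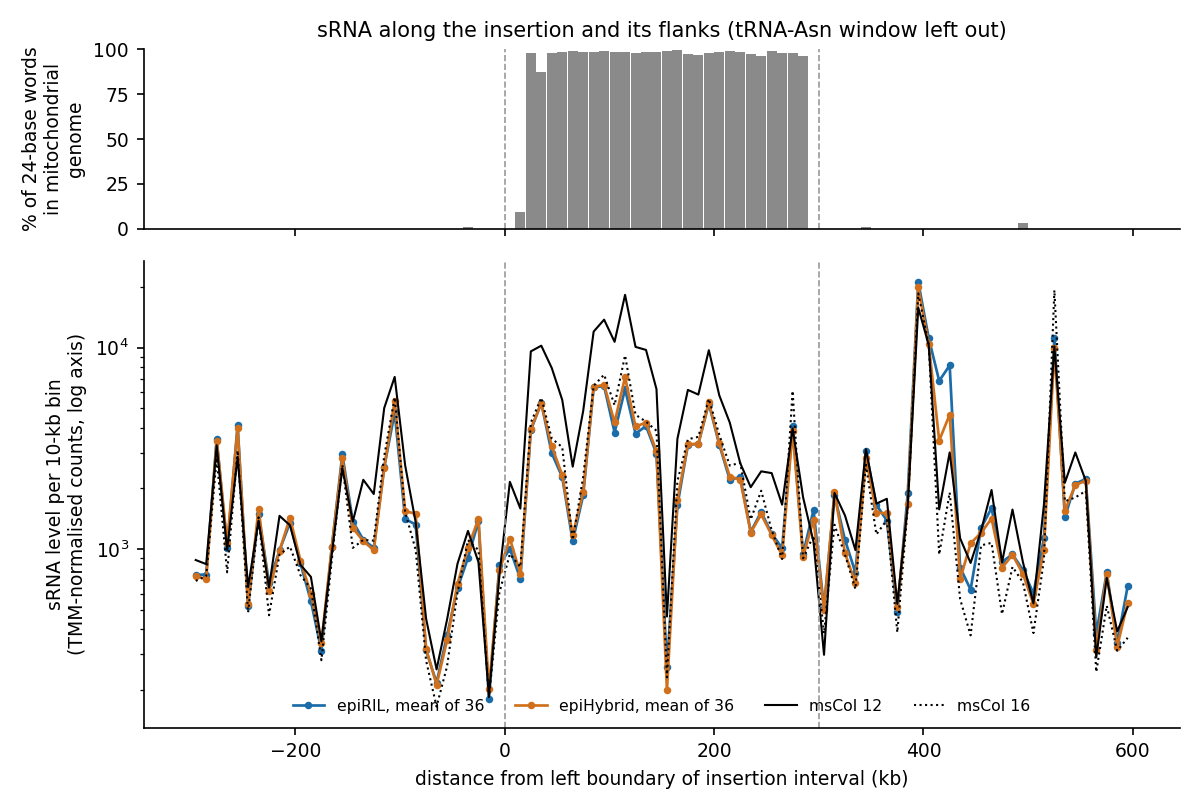
Upper panel, mean share of 24-base words found in the mitochondrial genome per 10-kb bin; lower panel, sRNA level per bin (TMM-normalised counts, log axis, tRNA-Asn window left out) for the means of 36 epiRILs and 36 epiHybrids and for each msCol library, against the distance from the left boundary of the interval, with dashed lines at 0 and 300 kb. In the insertion the curve of msCol 12 runs above the other 3 over most bins, and all of them dip in the bin at 150 kb.

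The sRNA at genes of the respiratory chain was compared next, because the insertion carries copies of the genes that build it. The annotation lists 193 genes in the interval, of which 96 are protein coding, 23 are tRNA genes, 21 are pseudogenes and 27 are transcribed pseudogenes. Windows with a mitochondrial gene had a median level of 58.2 (288 windows), and windows of mitochondrial sequence without one had 28.5 (1061 windows).

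Among the genes of NADH dehydrogenase, the first complex of the chain, AT2G07689 had the highest sum over its windows, with 43.5 to 1268 normalised counts in epiRILs (median 648), 352 to 1359 in epiHybrids (median 722), and 2183 and 1045 in msCol. It matches the mitochondrial nad2 gene, and its sum was higher in the epiHybrid than in its father in 27 of 36 families. Among cytochrome b and cytochrome c oxidase genes, which act later in the chain, AT2G07718 (cytochrome b, an annotation that also spans mitochondrial nad4) had 636 to 4622 in epiRILs (median 2138), 1465 to 4098 in epiHybrids (median 2099), and 3763 and 2306 in msCol. AT2G07695 (cytochrome c oxidase subunit II) had 164 to 1604 in epiRILs (median 784), 442 to 1867 in epiHybrids (median 820), and 1791 and 898 in msCol. In each of these genes the lowest epiRIL lay below every epiHybrid.

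Among ATP synthase genes, which make ATP from the proton gradient, AT2G07698 (alpha subunit) had 941 to 2556 normalised counts in epiRILs (median 1351), 1033 to 2371 in epiHybrids (median 1358), and 2203 and 2029 in msCol. AT2G07777 (subunit 9) had 461 to 2682 in epiRILs (median 1150), 552 to 2477 in epiHybrids (median 1122), and 2412 and 1308 in msCol. The cytochrome c maturation gene AT2G07681, which serves the loading of haem, had 110 to 2174 in epiRILs (median 553), 355 to 1737 in epiHybrids (median 614), and 1519 and 693 in msCol. At AT2G07698 both msCol libraries lay inside the range of both other groups, and in all 3 genes the medians of epiRILs and epiHybrids were close beside their spread.

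The ribosomal protein gene AT2G07696 (S7 family) had 66.8 to 797 normalised counts in epiRILs (median 237), 139 to 657 in epiHybrids (median 247), and 482 and 281 in msCol. Per 200-bp window, the lists of annotated genes ranged in median level from 18.9 for cytochrome c maturation to 99.0 for tRNA genes. Between them lay ribosomal proteins (21.4), NADH dehydrogenase (29.5), cytochrome genes (47.8) and ATP synthase (52.5). This order holds for the annotated genes only, for NADH dehydrogenase 4 genes with 20 windows. Windows matched to mitochondrial NADH dehydrogenase genes by sequence had medians from 21.4 (nad6, 4 windows) to 122 (nad2, 36 windows). For ATP synthase genes they ran from 5.21 (atp6, 12 windows) to 123 (atp1, 9 windows). No ribosomal RNA gene and no maturase gene was found by annotation, whereas 11 windows matched the mitochondrial maturase gene matR by sequence, with 8.2 to 219 counts per window in epiRILs (median 100).

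In the comparison of epiHybrids with their fathers, single windows of the insertion were tested first. Of 1416 windows tested, 47 passed the threshold (adjusted p under 0.05, edgeR with family as a block), 30 higher and 17 lower in epiHybrids (51 and 12 with library size alone, 21 and 20 with median-of-ratios size factors, 13 windows without the block, and 57 windows, 36 higher and 21 lower, without families 12 and 568), while over all 174548 windows of the genome 8.02% were called, 4.46% higher and 3.56% lower. In the flanks 67 of 1209 windows on the left (62 higher, 5 lower) and 87 of 1337 on the right (35 higher, 52 lower) were called. The median log2 fold change was 0.13 in the insertion, 0.09 in the left flank, -0.01 in the right flank and 0.05 over all windows. The share called in the insertion was 3.32%.

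By annotated function, epiHybrids were higher in 4 of 20 windows at NADH dehydrogenase genes and in 2 of 37 at ATP synthase genes. They were also higher in 1 of 47 windows at cytochrome c maturation genes and in 1 of 27 at ribosomal protein genes. They were lower in 2 of 37 windows at ATP synthase genes and in 2 of 27 at tRNA genes. For comparison, 4.46% of all windows of the genome were called higher and 3.56% lower. The 74 windows at cytochrome b and oxidase genes gave 0 calls by edgeR and by DESeq2, with 5 higher and 0 lower at an unadjusted p under 0.05 by edgeR. The median log2 fold change of these lists lay between 0.01 and 0.17. The list of NADH dehydrogenase holds 4 annotated genes, while 36 windows matched nad2 alone by sequence, so that it covers only a part of this complex.

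The window at chr2:3377801-3378000 in AT2G07638 was lower in epiHybrids (log2 fold change -2.67, SE 0.34, adjusted p = 2.6e-07, edgeR, 6 of 36 families higher), with 0.893 to 149 normalised counts in epiRILs (median 37.4), 0 to 56.6 in epiHybrids (median 3.77) and 16.9 and 2.93 in msCol. Windows at chr2:3495801-3496000 (-1.77, SE 0.44, adjusted p = 0.00705) and chr2:3496001-3496200 (-1.34, SE 0.32, adjusted p = 0.00464) in AT2G07739, a gene similar to chloroplast Ycf1, were also lower. They share 94.9% and 45.8% of their words with the chloroplast genome as well, had medians of 87.7 and 48.0 in epiRILs and 44.8 and 23.5 in epiHybrids, 50.6 and 56.2 in msCol 12, and 89.2 and 54.1 in msCol 16. The ranges of the groups overlapped in each.

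The largest increase was found at chr2:3386801-3387000 in AT2G07708 (log2 fold change 4.89, SE 0.65, adjusted p = 0.00975, edgeR), which came from a single library, with 915 normalised counts in epiHybrid 454 and at most 1 in each of the other 73, and neither DESeq2 (adjusted p = 0.525) nor limma voom (adjusted p = 0.107) called it. The windows at chr2:3459401-3459600 in AT2G07729 (0.91, SE 0.25, adjusted p = 0.0155, 27 of 36 families higher) and chr2:3368001-3368200 in AT2G07699 (0.87, SE 0.23, adjusted p = 0.0135, 25 of 36 families higher) rose in many families. Their medians were 10.7 and 15.9 in epiRILs and 18.9 and 37.8 in epiHybrids.

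Sums over 10-kb bins were compared next. Of the 30 bins of the insertion 5 were called (sign-flip permutation over families, adjusted over 90 bins, adjusted p under 0.05), against 10 in the left and 13 in the right flank, and 31.1% over all 90. EpiHybrids were higher in the bins at 0, 100 and 110 kb, by 0.18, 0.29 and 0.32 on the log2 scale. They were lower in the bins at 150 kb, by -0.35 (6 of 36 families higher), and at 290 kb, by -0.13 (13 of 36 families higher). The bin at 150 kb had the lowest mean level of the insertion (232). It contains the window at chr2:3377801-3378000 named above, with means of 41.9 in epiRILs and 7.99 in epiHybrids. Whether the call of this bin rests on that window was not tested.

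The sum over the insertion did not differ between epiHybrids and fathers by the test. With all windows the mean log2 ratio was 0.05 ± 0.87 (SD, n = 36 families, 18 higher, sign-flip permutation p = 0.743), and without the tRNA-Asn window 0.07 ± 0.30 (20 higher, permutation p = 0.191), which scaling by library size alone moved to 0.12 (permutation p = 0.0484) and leaving out families 12 and 568 to 0.08 (permutation p = 0.135). The left flank gave 0.03 ± 0.18 (19 higher, permutation p = 0.306). In the right flank epiHybrids were lower, by -0.16 ± 0.21 (11 of 36 higher, permutation p = 3e-05), and the highest value there was that of epiRIL 266.

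Relative to both flanks of the same library, pooled into a single value per window, the insertion had more sRNA per window. In epiRILs this held against the left flank only. Their median sums were 78907 normalised counts in the insertion without the tRNA-Asn window, 39521 in the left and 80789 in the right flank. In epiHybrids these medians were 83946, 40746 and 75028. The insertion was not tested against each flank alone. The ratio to the pooled flanks does not depend on library scaling. Without the tRNA-Asn window the mean log2 ratio was 0.40 ± 0.46 in epiRILs (n = 36) and 0.57 ± 0.33 in epiHybrids (n = 36), with permutation p = 1e-05 for each, the smallest that 100000 permutations can give. With that window the ratios were 1.20 ± 0.75 and 1.35 ± 0.63. The ratio was higher in the epiHybrid than in its father in 26 of 36 families, by 0.17 ± 0.32 (permutation p = 0.00247, or 0.18 with p = 0.002 without families 12 and 568), while the insertion itself moved by 0.07 and the right flank by -0.16. With the tRNA-Asn window this difference was 0.15 (permutation p = 0.289). No window of the flanks was left out in either case.

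**Figure D3:**
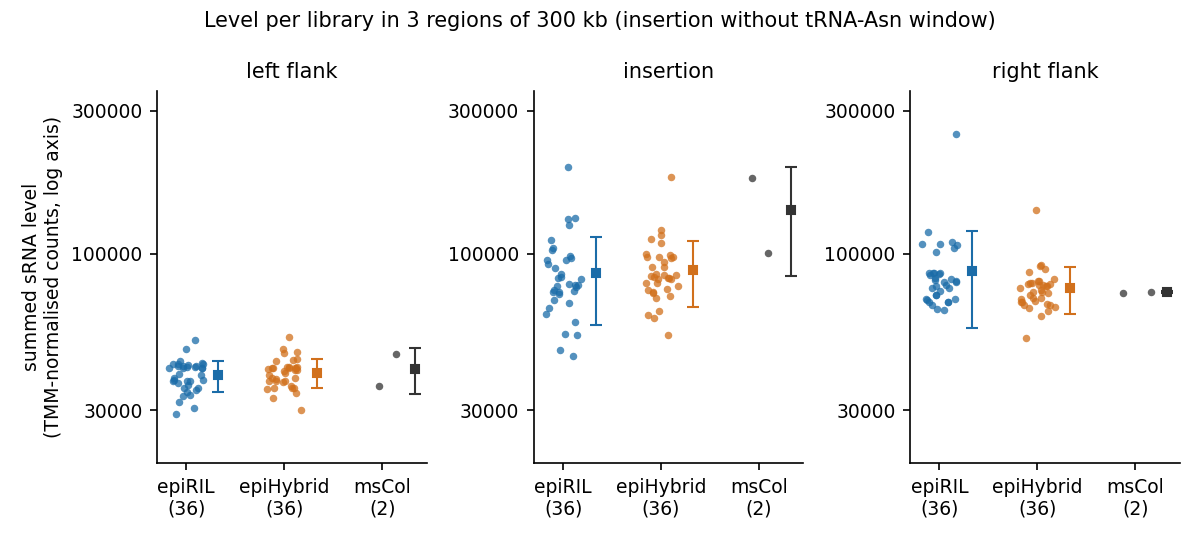
Summed sRNA level (TMM-normalised counts, log axis) of each library in the left flank, the insertion without the tRNA-Asn window and the right flank, by group, with squares and bars for mean and SD. In the insertion the epiRILs run from 45540 to 194104 and the epiHybrids from 53508 to 179902, and msCol 12 lies at 178800.

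Against the mother, the level of the insertion was lower in both groups once the tRNA-Asn window was left out. EpiRILs had 45540 to 194104 normalised counts (median 78907), epiHybrids 53508 to 179902 (median 83946), and msCol 178800 (library 12) and 100352 (library 16). The mean log2 difference to msCol was -0.71 for epiRILs (exact permutation test, p = 0.037) and -0.64 for epiHybrids (exact permutation test, p = 0.0185), and it rests on msCol 12, since without that library it was -0.29 (exact p = 0.405) and -0.22 (exact p = 0.378). With all windows the differences were -0.58 (exact p = 0.312) and -0.53 (exact p = 0.267). For epiRILs the flanks gave -0.07 (left, exact p = 0.576) and 0.18 (right, exact p = 0.351).

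Window by window the same direction appeared in epiRILs against msCol, with a median log2 fold change of -0.62 over 1416 windows of the insertion. The median was -0.05 in the left flank, 0.15 in the right flank and 0.03 over all windows. The value of the insertion depends on msCol 12. Without that library the medians were -0.11 in the insertion, 0.20 in the left and 0.50 in the right flank. Without msCol 16 they were -0.99, -0.22 and -0.05. Of the 1416 windows 14 were called lower and 0 higher in epiRILs (edgeR, adjusted p under 0.05), with 14 higher and 376 lower at an unadjusted p under 0.05. DESeq2 also called 14 lower and 0 higher, 10 of them among the 14 of edgeR. Without msCol 12 the fit called 1 window, which was not among the 14, and without msCol 16 it called 15, of which 7 were. In both of these fits the remaining msCol library is assumed to vary like the lines of the other groups. Over the genome edgeR called 1.92% of 174612 windows, 1.06% higher and 0.856% lower. Only 125 of the tested windows shared no word with the mitochondrial genome, and their median was -0.20. In the 1142 windows that shared more than 90% of their words the median was -0.63. Whether this contrast rests on msCol 12 was not tested. By annotated function, epiRILs were lower in 2 of 20 windows at NADH dehydrogenase genes and 1 of 74 at cytochrome genes. They were also lower in 1 of 37 windows at ATP synthase genes and 1 of 47 at cytochrome c maturation genes. The 27 windows at ribosomal protein genes gave 0 calls by edgeR and by DESeq2. At an unadjusted p under 0.05, 0 of these were higher and 5 lower by edgeR. The 27 windows at tRNA genes had a median of 0.03 and gave 0 calls by edgeR and by DESeq2. At an unadjusted p under 0.05 by edgeR, 2 of them were higher and 3 lower.

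The window at chr2:3230401-3230600 in AT2G07660, which shares no word with the mitochondrial genome, was lower in epiRILs (log2 fold change -1.69, SE 0.47, adjusted p = 0.0369, edgeR), with 7.30 to 117 normalised counts in epiRILs (median 34.1), 4.07 to 96.2 in epiHybrids (median 42.7), and 137 and 96.6 in msCol. A window at chr2:3333401-3333600, at the mitochondrial nad2 gene of NADH dehydrogenase, was lower in epiRILs (-1.66, SE 0.46, adjusted p = 0.0326), with medians of 124 and 150 in epiRILs and epiHybrids and 583 and 237 in msCol. Another window at chr2:3286601-3286800, with no annotated gene, gave -1.66 (SE 0.43, adjusted p = 0.0222), with 16.8, 19.8, 87.1 and 26.3. Without msCol 12 none of the 3 passed the test, with -1.42 in the first (adjusted p = 0.486), -0.87 in the second (0.77) and -0.54 in the third (0.907). In the first of these windows msCol 16 lay above all epiHybrids and in the other 2 within their range.

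Set against the mid-parent value, the mean of father and mother, the epiHybrids had less sRNA at the insertion. Without the tRNA-Asn window the divergence was -22.3 ± 12.0% (SD, n = 36 families, 2 higher, sign-flip permutation p = 1e-05, the smallest possible), and without msCol 12 it was -5.67% (permutation p = 0.0204), without msCol 16 -33.8% and without families 12 and 568 -21.7%. All 36 mid-parent values share the same msCol mean, so that the permutation over families leaves out the uncertainty of the mother. With all windows it was -12.0 ± 37.4% (permutation p = 0.0638). The left flank gave -0.19 ± 11.0% (permutation p = 0.922) and the right flank -5.21 ± 7.90% (permutation p = 0.00032), or -1.76% (permutation p = 0.185) when windows with genes for tRNA, ribosomal RNA and other structural RNAs were left out.

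The level of the insertion in an epiHybrid followed that of its father. Over 36 families, without the tRNA-Asn window, Pearson's r was 0.71 and Spearman's rho 0.75 (permutation p = 1e-05 for both, adjusted over 9 relations 4.5e-05 and 9e-05), and r was 0.61 without the 2 families farthest from the median (419 and 158) and 0.72 without families 12 and 568. The same relation had r = 0.39 in the left flank (rho 0.43, permutation p = 0.0181, adjusted p = 0.0406, r = 0.24 without 2 families, and adjusted p = 0.0701 without families 12 and 568) and r = 0.84 in the right flank (rho 0.68, permutation p = 1e-05, r = 0.70 without 2). With the tRNA-Asn window the libraries fell into clusters, so that no pooled relation is given.

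**Figure D4:**
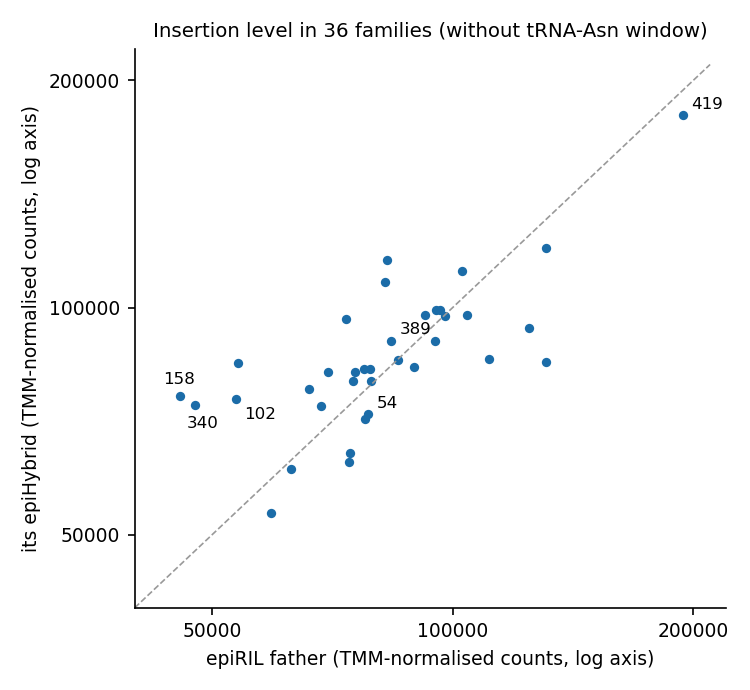
Level of the insertion without the tRNA-Asn window in each epiRIL father and in its epiHybrid (TMM-normalised counts, log axes), 1 point per family, with a dashed line at equal levels and some family numbers. Family 419 is highest on both axes, and families 158, 340 and 102 lie above the line at the low end of the fathers.

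Between regions of the same library the relation was weaker. Over 36 epiRILs the insertion and the left flank had r = 0.41 and rho = 0.43 (permutation p = 0.0134, adjusted p = 0.0401, r = 0.40 without epiRILs 419 and 158), and without family 419 r was 0.40 with an adjusted p of 0.0537. The insertion and the right flank had r = 0.12 and rho = 0.24 (permutation p = 0.462, adjusted p = 0.462). Over 36 epiHybrids the values were r = 0.25 (left, rho 0.29, permutation p = 0.142, adjusted p = 0.213) and r = 0.14 (right, rho 0.10, permutation p = 0.399, adjusted p = 0.449).

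Single libraries departed from the rest along long stretches. EpiRIL 419, its epiHybrid and msCol 12 were raised, with more than 2 times the epiRIL median in 647, 626 and 551 of the 900 windows of the insertion that had an epiRIL median of at least 20 normalised counts. Each was more than 2 times the epiRIL median in 22, 22 and 20 of the 30 bins of the insertion and in 1, 1 and 1 of the 30 bins of the left flank. The rise was also present in the first bin, which shares no word with the mitochondrial genome (log2 0.65, 1.26 and 1.17), while the bin at 270 kb with the tRNA genes gave 0.03, 0.13 and 0.01 and the last bin 0.47, -0.10 and -0.43. The other mother, msCol 16, stayed between -0.33 and 0.63 in all bins of the insertion.

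In the opposite direction, a few epiRILs lost most reads in many windows while neighbouring windows kept theirs. In epiRIL 102, 398 of the 900 windows (44.2%) were below 1/8 of the epiRIL median, with a median raw count of 2 where the median line had 49.5, and 94 of them were at 0. In epiRIL 389 there were 232 such windows, in epiRIL 158 147 and in epiRIL 54 55, and every other epiRIL had at most 18. The longest series of reduced windows in epiRIL 102 held 29 in a row among the 900, over a span of 6.4 kb that also contains windows outside the 900. In the left flank the same 4 lines, in this order, had 47, 24, 12 and 35 of 420 windows below that limit, and in the right flank 133, 106, 36 and 106 of 459. Their right flank also held raised stretches, with 10, 6, 10 and 8 of 30 bins above 2 times the epiRIL median. Its sum was 108912, 106467, 118082 and 101393 normalised counts in these lines, against an epiRIL median of 80789.

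The reduced windows of different lines overlapped in part. EpiRILs 102 and 389 shared 193, which is 48.5% of those of epiRIL 102 and 83.2% of those of epiRIL 389. EpiRILs 102 and 158 shared 98, 24.6% and 66.7% of their lists, and epiRILs 158 and 389 shared 54, 36.7% and 23.3%. Of its 55 reduced windows, epiRIL 54 shared 40 with epiRIL 102, 29 with epiRIL 389 and 12 with epiRIL 158. For comparison, 398 of all 900 windows were reduced in epiRIL 102, 232 in epiRIL 389 and 147 in epiRIL 158. The overlaps were not tested against these shares. Of the 900 windows, 502 were reduced in at least 1 epiRIL, with a highest number of 13 lines for a single window. In the left flank this held for 75 of 420 windows (at most 10 lines). In the right flank it held for 171 of 459 (at most 17 lines).

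At the level of mitochondrial genes the reduction was uneven. In epiRIL 102 the windows of rpl2 had a mean of 13.9 normalised counts (epiRIL median 232), those of nad7 13.8 (median 62.7) and those of matR 9.8 (median 100). By contrast atp1, for the alpha subunit of ATP synthase, had 99.6 (median 127) and cox3, for a subunit of cytochrome c oxidase, 155 (median 88.8), and the tRNA-Cys window had 1194 (median 1319). EpiRIL 389 was also low at matR (8.2) and nad7 (10.9) and high at atp1 (225), and it was at the highest epiRIL value at ccmFN1 (229, median 30.9), a cytochrome c maturation gene at which epiRIL 102 had 4.6. Whether reads of the mitochondrial genome make up the level that remained was not tested.

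The epiHybrids of these fathers were followed at the same windows, which were chosen for low values in the father, so that the values are a description. At the 398 windows of family 102 the epiHybrid had a median raw count of 44.5, and its median log2 ratio to the epiHybrid median was -0.43, against -0.12 at the other 502 windows. In family 158 these values were -0.29 and -0.22, in family 389 -0.24 and 0.17, and in family 54 -0.97 and -0.21. The log2 ratio to the mid-parent value at the reduced and at the other windows had medians of -0.30 and -0.42 in family 102, of -0.16 and -0.31 in family 158, of -0.13 and -0.35 in family 389, and of -0.81 and -0.59 in family 54. Relative to the mid-parent value the reduced windows were lower than the others in family 54 and higher in the other 3. No epiHybrid had more than 14 windows below 1/8 of the epiRIL median. The mothers had median counts of 133.5 (msCol 12) and 42 (msCol 16) at the 398 windows.

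**Figure D5:**
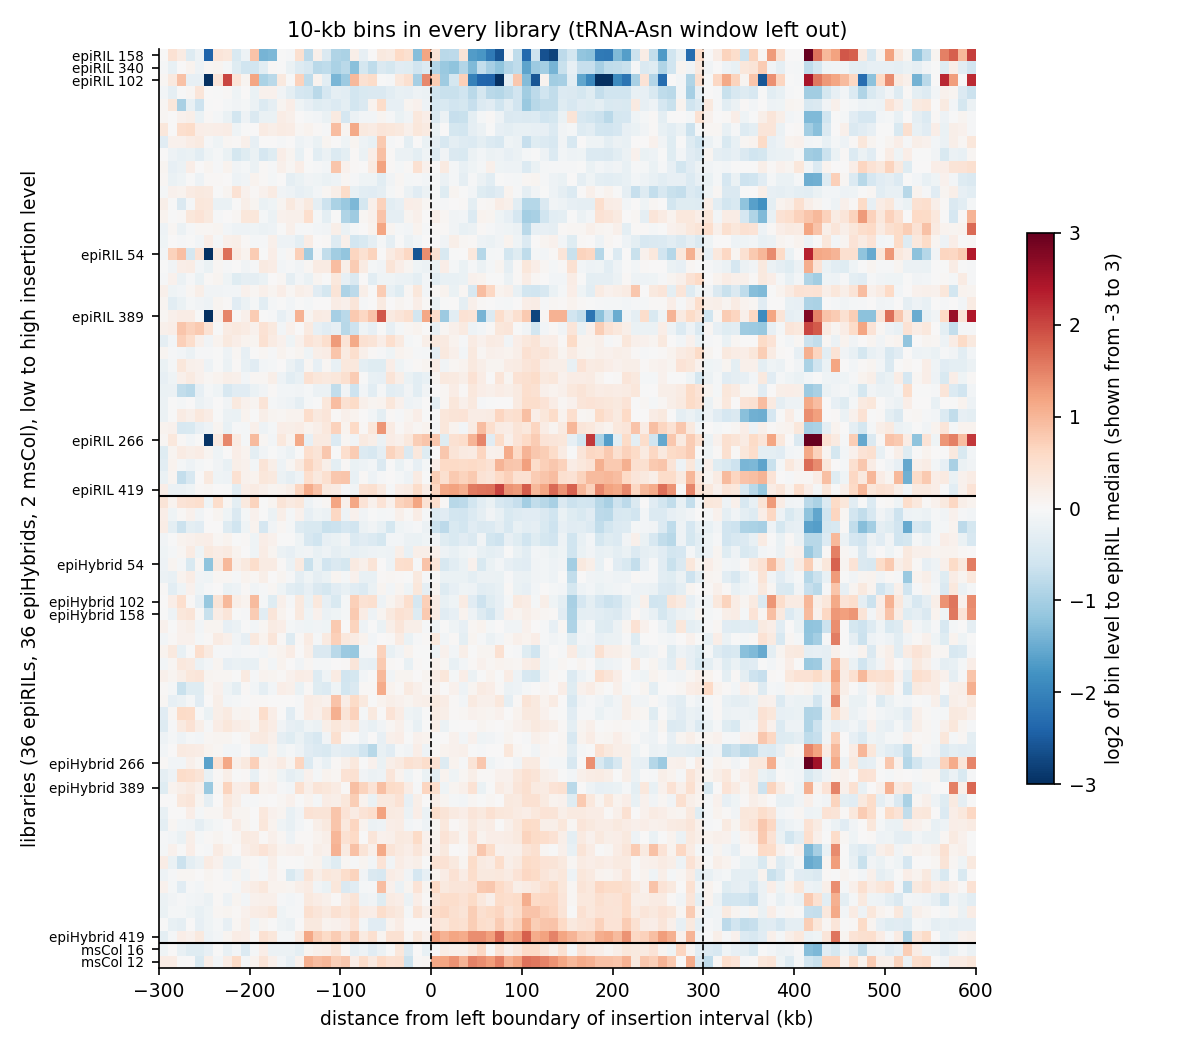
Log2 ratio of each 10-kb bin to the epiRIL median of that bin (colour, from -3 to 3, tRNA-Asn window left out) in 74 libraries, sorted within each group by the level of the insertion, against the distance from the left boundary of the interval, with dashed lines at 0 and 300 kb and solid lines between groups. EpiRILs 102, 158 and 389 show blue bins down to -3.54, -2.78 and -2.75 within the insertion, and epiRIL 419, epiHybrid 419 and msCol 12 are red over most of it.

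The spread between lines was described by the SD in each bin, with no test. The SD of the log2 level over epiRILs was larger than over epiHybrids in 30 of 30 bins of the insertion, with medians of 0.56 and 0.37, and in 27 of 30 bins of the left and 26 of 30 of the right flank, with medians of 0.33 and 0.25 and of 0.47 and 0.34. EpiRIL 340 had a median log2 ratio of -1.04 over the 900 windows with 18 windows below 1/8, and its bins lay between -1.58 and 0.29. Library totals lay between 20995764 and 27084303 counts in the CHH windows, and the TMM factor of msCol 16 (0.733) stood below the range of the other libraries (0.818 to 1.17).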

How the data were processed

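Small RNA was measured in 74 libraries (36 epiHybrids, 36 epiRILs, 2 msCol), 1 per line. The authors ran ShortStack with default parameters and without the microRNA search on TAIR10, over regions of 200 bp, separately for the CG, CHG and CHH tables. The deposited values are raw counts of reads of all lengths. The version, and the treatment of reads with several matches and of molecular identifiers, are not given in the sources used here, so that precision covers counting error and spread between lines alone. Totals were 20995764 to 27084303 counts.

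Windows of the CHH table whose start is 1 above a multiple of 200 were used, so that none overlap. The insertion and the gene lists were chosen with earlier results of these data known. edgeR 4.0.16 (R 4.3.3, quasi-likelihood F test, TMM factors, Benjamini-Hochberg adjustment) was run on every window that reached a mean count of 2, with family as a block for epiHybrids against epiRILs and without a block on all 74 libraries for epiRILs against msCol. The block pairs each epiHybrid with its own father by the number in the labels. Sums over the interval, each flank and 10-kb bins were tested by permuting signs of family differences (100000 draws, two-sided) or by exact permutation over libraries (two-sided, smallest p 0.00142). Log2 ratios of sums had no pseudocount, and those of an epiHybrid at single reduced windows had 1 added to each value. Families 12 and 568, whose libraries may carry each other's label, were kept under their labels.

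Words of 24 bases were matched to the RefSeq organelle genomes with Python 3.11.15 and NumPy 2.4.6. The reference has the chromosomes of TAIR10, while its mitochondrial genome differs from that of the build the authors used. Named windows are the 5 highest in mean level and up to 3 in each direction with the largest called change in each comparison. Named genes hold the most counts in lists of respiratory chain, maturation, ribosomal and tRNA genes. A library was called raised in a window above 2 times, and reduced below 1/8 of, the epiRIL median, for windows with an epiRIL median of at least 20. DESeq2 1.42.0, limma 3.58.1, other normalisations, filters, window sets and samples were tried as alternatives. On simulated data with 10000 windows, of which 200 changed 2-fold, the fit of epiHybrids against epiRILs recovered 99.5% with 9 false calls, and that of epiRILs against msCol recovered 3.5% with 3 false calls, so that with 2 msCol libraries a change of that size is rarely called. Sums and relations without the tRNA-Asn window, the relations in place of those over all windows, were added after the data were seen. No column of values was without a sample.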

Additional observations from a re-analysis of the deposited data

Results flagged for a closer look

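The ratio of the insertion to its flanks was higher in epiHybrids than in their fathers by 0.17 on the log2 scale without the tRNA-Asn window (sign-flip permutation p = 0.00247, higher in 26 of 36 families), a difference between the groups that was itself tested. The insertion moved by 0.07 and the right flank by -0.16 in the same comparison, and with the tRNA-Asn window the difference was 0.15 (permutation p = 0.289). The choice to leave out that window was made after the data were seen, and no window of the flanks was left out.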

How the results depend on the processing

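Between epiHybrids and epiRILs, the 47 windows called in the insertion became 80 with DESeq2 (45 of the 47 among them), 29 in the CG table and 31 in the CHG table. Without the replicate block, and so without the pairing of each epiHybrid with its father, 13 were called (12 of the 47), and over the genome 7801 in place of 14000. The pairing comes from the family number of the labels. Between epiRILs and msCol, the 14 windows became 25 with median-of-ratios size factors, 3 with no filter on low counts, 29 with a minimum mean of 5 counts, 7 in the CG and 3 in the CHG table, and 1 to 15 when either msCol library was left out. Over the genome, 3349 windows became 1737 with no filter, 1537 without msCol 12 and 1773 without msCol 16. Scaling by library size alone moved this comparison's median over all windows from 0.03 to 0.14 on the log2 scale. The fit of epiHybrids against epiRILs with no filter on low counts was not run.

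With all windows, the log2 difference of epiRILs to msCol was -0.58 and missed the threshold. It passed without the 10 highest windows of each region (-0.73, exact permutation p = 0.0398), without structural RNA genes (-0.74), in the core of the interval (-0.74), without the tRNA-Asn window (-0.71) and without that window and family 419 (-0.74). When either msCol library was left out, it ranged from -0.66 to -0.49 with all windows and from -1.12 to -0.29 without the tRNA-Asn window. The divergence from the mid-parent value, -12.0%, passed with median-of-ratios size factors (-14.7%, permutation p = 0.0209) and in the same 5 window sets (-22.9%, -23.2%, -22.9%, -22.3% and -23.1%, in this order). With either msCol library left out, it ranged from -14.9% to -8.89% with all windows and from -33.8% to -5.67% without the tRNA-Asn window. The relation of insertion and left flank over epiRILs lost its call with flanks of 100 kb (r = 0.26, adjusted permutation p = 0.191) and without family 419 (r = 0.40). In the left flank, the difference of epiRILs to msCol turned to 0.072 with library size alone, with a range of -0.25 to 0.11 when either msCol library was left out, and the mid-parent divergence turned to 6.72% with library size alone, 0.63% in the CG table, 2.70% in the CHG table and 0.29% without families 12 and 568, with a range of -6.12% to 6.55%. In the right flank that divergence turned to 2.25% with library size alone. The cause of these changes was not tested. Of 406 values of 42 results under alternatives, 324 counted as unchanged. For tested values this meant the same direction and side of the threshold, and for counts of windows a number near the main one. Values without a p-value had to keep their direction and stay within the SD of the main value.

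With 2 msCol libraries at 178800 and 100352 normalised counts, comparisons with the mother are the least certain. Single libraries stand for lines, and the pooling of reads of all lengths and the unknown treatment of reads with several matches limit what a count in mitochondrial sequence stands for.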
